A study of Mus musculus with 7 samples.

Results

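The genes described here encode the proteins of the mitochondrial ribosome. They were chosen by name alone, as every promoter whose gene symbol starts with Mrpl or Mrps followed by a digit, and 77 of the 36733 transcription start sites (TSSs) in the Flag ChIP files met this rule. These 77 rows belonged to 69 of the 17689 gene symbols, 25 of them Mrps genes (27 rows) and 44 Mrpl genes (50 rows). Mrpl24 had 4 rows, 5 further genes had 2 rows each, and the other genes had 1. Rows of the same gene share reads wherever their windows overlap and are not independent. Mrps2, Mrps5, Mrps6, Mrpl4 and Mrpl21 were not analysed here.

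The mitochondrial ribosome makes the few proteins encoded by mitochondrial DNA, nearly all of which are subunits of the respiratory chain and the ATP synthase. All of its proteins are encoded in the nucleus, made in the cytosol and imported. Some descend from the proteins of bacterial ribosomes, and others are found only in mitochondria. Symbols do not always follow the present assignment of the proteins: the products of Mrps18a and Mrps30 sit in the large subunit, and the product of Mrps36 belongs to the oxoglutarate dehydrogenase complex.

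ChIP-seq was performed in mouse embryonic stem cells (ESCs), with 1 library for each of 7 conditions and no replicates. The Flag antibody was used in Tip60-H3F cells (GFP KD or Hdac6 KD), in Hdac6-H3F cells (GFP KD or Tip60 KD) and in untagged E14 cells, whose signal is the background of the Flag antibody. The endogenous p400 protein was precipitated with its own antibody upon GFP KD and Hdac6 KD, with no untagged or input counterpart analysed here. Tip60 is an acetyltransferase and p400 an ATP-dependent remodeler of one chromatin complex, and Hdac6 is a deacetylase best known from the cytoplasm. H3F is a tag of histidine and Flag epitopes added at the C-terminus of the endogenous protein, for Tip60 from 1 of its gene copies, in E14 cells. Knockdown was by lentiviral shRNA, GFP KD is the control knockdown, and knockdown cells were taken 72 hr after infection. The title of the untagged library names no knockdown, and no time after infection is given for it. Comparisons with the untagged cells may therefore differ in knockdown treatment as well as in the tag. For the library titled as Tip60 KD with Hdac6 ChIP, the genotype field of its label reads Hdac6 KD. It was grouped by its title, and a comparison that uses it rests on that title. The files hold no expression values, so neither the cell type nor the knockdowns could be checked in them.

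Signal is given in ppm, the read coverage at a base scaled to the number of reads to which a library was normalized, and this number ran from 9226750 (Hdac6, Tip60 KD) to 31375600 (p400, Hdac6 KD). The promoter value of a row is the mean signal from -500 to 500 bp of the TSS. A member promoter held few reads: the median upon GFP KD was 19 for Tip60, 15 for Hdac6 and 33 for p400. Upon Hdac6 KD it was 16 for Tip60 and 21 for p400, in the library titled Tip60 KD it was 11 for Hdac6, and in untagged cells it was 17. With 1 library per condition the spread between cultures is unknown. Rows were therefore called past a 1.5-fold difference, computed with 0.02 ppm added to both values. A second call used an exact binomial test of the reads of 2 libraries, with Benjamini-Hochberg adjustment over all rows and a threshold of 0.05. That test and the 95% exact intervals of read ratios cover counting error only, with reads taken as independent. Both compare libraries rather than conditions.

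The promoters of 5 genes are printed here, read from the mm9 genome from 250 bp before the TSS to 49 bp after it, 5′ to 3′ in the direction of transcription. Mrpl54 and Mrps18b had the most p400 upon GFP KD, Mrpl35 and Mrpl55 the least, and the Mrps11 window also holds the start of Mrpl46, 2 genes whose p400 signal did not fall. Capitals mark matches to the motif letters given with the motif shares, on either strand. The windows lie at chr10:80729622-80729921 (minus strand, Mrpl54), chr17:36053265-36053564 (minus strand, Mrps18b), chr7:85927946-85928245 (plus strand, Mrps11), chr6:71773722-71774021 (minus strand, Mrpl35) and chr11:59015790-59016089 (plus strand, Mrpl55).
Mrpl54: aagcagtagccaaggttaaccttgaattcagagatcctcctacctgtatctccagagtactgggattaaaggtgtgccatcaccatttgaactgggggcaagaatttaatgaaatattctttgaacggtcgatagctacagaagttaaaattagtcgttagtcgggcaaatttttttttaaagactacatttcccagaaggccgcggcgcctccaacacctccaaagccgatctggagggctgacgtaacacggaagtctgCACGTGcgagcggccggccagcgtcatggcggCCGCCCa
Mrps18b: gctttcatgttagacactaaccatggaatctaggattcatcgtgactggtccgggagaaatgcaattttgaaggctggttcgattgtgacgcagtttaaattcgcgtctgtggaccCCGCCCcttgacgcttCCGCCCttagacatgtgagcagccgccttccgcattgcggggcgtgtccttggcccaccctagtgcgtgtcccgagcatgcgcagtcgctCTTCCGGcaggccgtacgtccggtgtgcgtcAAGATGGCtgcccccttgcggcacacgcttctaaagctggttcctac
Mrps11: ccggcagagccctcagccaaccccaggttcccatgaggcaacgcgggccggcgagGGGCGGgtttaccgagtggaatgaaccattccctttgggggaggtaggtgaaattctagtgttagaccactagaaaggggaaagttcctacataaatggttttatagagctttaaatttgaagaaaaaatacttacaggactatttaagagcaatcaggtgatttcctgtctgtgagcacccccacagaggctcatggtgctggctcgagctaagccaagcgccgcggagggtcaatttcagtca
Mrpl35: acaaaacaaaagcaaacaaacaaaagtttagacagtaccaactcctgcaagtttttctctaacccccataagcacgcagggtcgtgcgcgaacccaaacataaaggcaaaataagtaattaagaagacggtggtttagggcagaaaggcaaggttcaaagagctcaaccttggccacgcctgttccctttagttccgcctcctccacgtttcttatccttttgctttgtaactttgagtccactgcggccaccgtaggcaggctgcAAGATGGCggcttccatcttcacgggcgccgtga
Mrpl55: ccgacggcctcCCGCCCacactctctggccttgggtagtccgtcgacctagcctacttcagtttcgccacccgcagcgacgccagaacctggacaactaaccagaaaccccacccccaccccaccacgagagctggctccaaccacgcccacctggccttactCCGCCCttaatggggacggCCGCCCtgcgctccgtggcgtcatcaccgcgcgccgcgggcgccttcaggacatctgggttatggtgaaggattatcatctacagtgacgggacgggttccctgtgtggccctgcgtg

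In these windows, with the TSS at position 0, Mrps18b held the ETS letters at -28 to -22 and the YY1 letters at 3 to 10, besides 2 Sp1 matches farther upstream. Mrpl35 held the YY1 letters at 16 to 23 and no other motif searched. Mrpl54 held an E-box at 11 to 16 and an Sp1 match at 43 to 48, Mrps11 an Sp1 match at -195 to -190, and Mrpl55 3 Sp1 matches.

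Mitochondrial ribosomal protein promoters had more p400 signal than most promoters upon GFP KD. Their median was 0.379 ppm against 0.239 ppm over the 22704 rows with a RefSeq identifier, the only rows the p400 files hold, and the median member stood at the 83.1st percentile. Ranked by p400 signal in percentile groups, the top 10% of rows held 21 members (27.3%), the following 20% held 34, the middle 30% held 15 and the bottom 40% held 7. Averaged over members, p400 formed a single summit of 0.484 ppm at -20 bp, over a flank of 0.160 ppm at 1500 to 2000 bp on either side. No untagged or input p400 library was analysed, so its background was not measured. In the untagged Flag library the median member stood at the 79.5th percentile. Mean promoter signal of members was 2.38 times the flank for p400 and 1.16 times for untagged Flag. Median p400 percentiles were 95.6 over cytosolic ribosomal protein rows, 82.3 over mitochondrial translation and assembly rows and 79.2 over respiratory chain rows.

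Mrpl54, which encodes a mitochondria-specific protein of the large subunit, had the highest p400 signal of the 69 genes, at 0.949 ppm. Mrps18b followed with 0.731 ppm, Mrpl12 with 0.653 ppm and Mrpl51 with 0.629 ppm. The TSS of Ppp1r10 lies 614 bp from that of Mrps18b, and the TSS of Ncapd2 614 bp from that of Mrpl51. Both neighbours are on the opposite strand. From -600 to -200 bp, p400 was 1.08 ppm at Mrps18b and 1.01 ppm at Mrpl51. From -100 to 300 bp it was 0.531 and 0.376 ppm. The p400 reads at Mrps18b and Mrpl51 therefore cannot be assigned to either gene of each pair. Mrps18b encodes 1 of 3 mammalian relatives of bacterial protein S18, and Mrpl12 encodes the homologue of bacterial L7/L12, the protein of the flexible stalk that contacts translation factors. At the other end were Mrpl35 with 0.143 ppm, Mrpl55 with 0.161 ppm, Mrpl53 with 0.164 ppm and Mrpl33 with 0.188 ppm. Mrpl35, Mrpl55 and Mrpl33 encode homologues of small bacterial proteins of the large subunit. The Mrpl53 TSS of the files lies 1004 bp from the nearest annotated transcript start, whereas 72 of the 77 member rows lie within 100 bp of one.

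Upon Hdac6 KD, p400 signal was lower at nearly all of these promoters. It was below its GFP KD value in 73 of 77 rows and past 1.5-fold lower in 57 (74.0%), against 40.5% of all 22704 rows. It was past 1.5-fold higher in 1 member row, the most 3′ of the 4 Mrpl24 rows, against 6.81% of all rows. The median log2 fold was -0.88 over members (a fall of 45.6%) and -0.43 over all rows. By the read test 25 members (32.5%) were lower and 0 higher, against 11.8% and 0.238% of all rows. At an unadjusted p under 0.05 the member counts were 48 lower (62.3%) and 0 higher, against 24.7% and 1.31% of all rows.

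**Figure D1:**
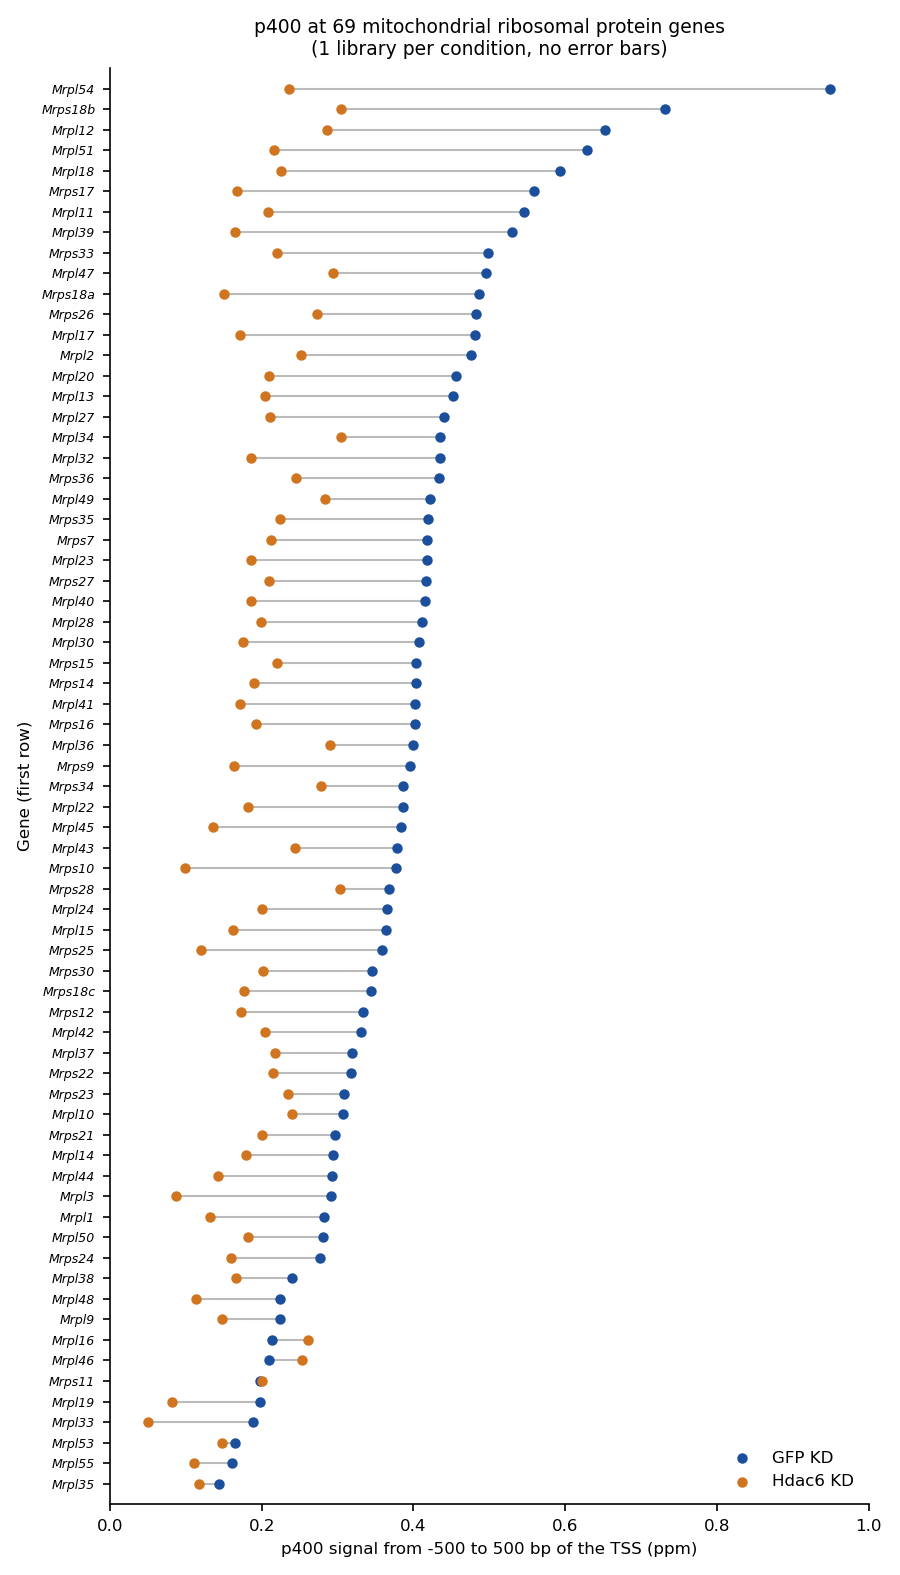
p400 signal (ppm, x axis) at the first row of each of the 69 genes (y axis, ordered by GFP KD), with GFP KD in blue and Hdac6 KD in orange and 1 library per point. Hdac6 KD values lie between 0.050 and 0.305 ppm, left of GFP KD in all genes but Mrpl16, Mrpl46 and Mrps11, and the longest line is that of Mrpl54.

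The change at Mrpl54 was the largest among the first rows. Its p400 signal went from 0.949 ppm (82 reads) to 0.236 ppm (25 reads), a log2 fold of -1.92 (95% interval of the read ratio 0.151 to 0.389, adjusted p = 2.58e-08, exact binomial read test). In the Flag libraries the promoter had 0.719 ppm of Tip60 upon GFP KD, 0.413 ppm of Tip60 upon Hdac6 KD, 0.162 ppm of Hdac6 upon both GFP KD and Tip60 KD, and 0.209 ppm in the untagged cells. Its Tip60 and p400 values upon GFP KD were thus the highest of the member genes, while its Hdac6 signal was below the member median of 0.183 ppm. Reads span 148 or 149 bp in the Hdac6 files and 299 bp in the other Flag files, so their ppm values cannot be compared directly. With the untagged signal scaled to the Hdac6 read span, Hdac6 upon GFP KD had a log2 fold over untagged of 0.56 at Mrpl54. That fold did not pass the read test.

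Mrps10, a homologue of bacterial S10, fell from 0.377 to 0.0987 ppm of p400 (33 and 11 reads), a log2 fold of -1.74 with an adjusted p of 0.00291 by the exact read test. Mrps17, a homologue of bacterial S17, fell from 0.559 to 0.167 ppm (48 and 18 reads), a log2 fold of -1.63 with an adjusted p of 0.000503 by the same exact test. Mrpl33 went from 0.188 to 0.050 ppm (16 and 5 reads, log2 fold -1.57), which did not pass (exact adjusted p = 0.0540). Of the genes with the most p400, Mrps18b went from 0.731 to 0.305 ppm, Mrpl12 from 0.653 to 0.286 ppm and Mrpl51 from 0.629 to 0.217 ppm, and all 3 passed the read test. After Hdac6 KD no member was above 0.305 ppm, a level that most members exceeded upon GFP KD.

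The first rows of 3 genes were not lower. Mrpl16, a homologue of bacterial L16, had 0.213 ppm in the control and 0.261 ppm in the Hdac6 KD library (18 and 28 reads, interval of the ratio 0.670 to 2.41). Mrpl46 had 0.210 and 0.253 ppm (18 and 27 reads, 0.642 to 2.33) and Mrps11, a homologue of bacterial S11, 0.198 and 0.200 ppm (17 and 21 reads, 0.501 to 2.01). Mrpl46 and Mrps11 are transcribed in opposite directions from starts 221 bp apart on chromosome 7, so their windows share most of their reads and they count as 1 region. The median member ratio of 0.544 lies inside the interval of Mrps11 and below those of Mrpl16 and Mrpl46, and all 3 intervals include no change.

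The 3 relatives of bacterial S18 show how members of one family differed. Their products take different places in the mitochondrial ribosome. Upon GFP KD, Tip60 was 0.298 ppm at Mrps18a, 0.575 ppm at Mrps18b and 0.213 ppm at Mrps18c, beside 0.294, 0.338 and 0.397 ppm in untagged cells. Hdac6 was 0.242, 0.261 and 0.213 ppm in the same order, from a file with a shorter read span. These Hdac6 values therefore cannot be compared directly with the Tip60 and untagged values. Tip60 was above untagged by 1.5-fold or more at Mrps18b and not at the other two, and no difference among the 3 was tested. p400 went from 0.486 to 0.151 ppm at Mrps18a (log2 fold -1.57, exact adjusted p = 0.00155) and from 0.344 to 0.176 ppm at Mrps18c (log2 fold -0.89, exact adjusted p = 0.136).

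Among genes of the stalk region of the large subunit, where translation factors dock, p400 at Mrpl11 went from 0.546 to 0.209 ppm (log2 fold -1.31, exact adjusted p = 0.00439). Mrpl12 also passed the read test, whereas Mrpl10, whose TSS lies 217 bp from that of Lrrc46, had 0.308 and 0.240 ppm (log2 fold -0.33, exact adjusted p = 0.713). Mrpl3, a homologue of bacterial L3, went from 0.291 to 0.0869 ppm (log2 fold -1.54, exact adjusted p = 0.0177). Mrpl44, whose product has a ribonuclease III-like fold, had a log2 fold of -0.94 and Mrpl47, the homologue of bacterial L29, one of -0.71, and neither passed. Of the Mrps genes fixed by name, Mrps16 (-0.99), Mrps7 (-0.92), Mrps12 (-0.88), Mrps36 (-0.77), Mrps30 (-0.72), Mrps22 (-0.52) and Mrps34 (-0.45) did not pass either.

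The p400 fall at members was close to that of other promoters with as much p400. Among rows in the top 10% of p400 signal the median log2 fold was -1.14 over the 21 members and -1.14 over all 2270 rows. In the following 20% it was -0.89 over 34 members and -0.80 over all rows, and in the middle 30% it was -0.57 and -0.46. The 7 members of the bottom 40% had a median of -0.26, against 0.06 over all rows of that group. The groups were set on the GFP KD library, which also enters the fold. A value high by counting error there gives both a higher group and a lower log2 fold. No test was run on these medians.

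By symbol, the medians were -0.88 over Mrps rows (21 of 27 past 1.5-fold lower) and -0.91 over Mrpl rows (36 of 50). Rows of bacterial homologues had a median of -0.99 (38 of 49) and mitochondria-specific rows -0.77 (19 of 28). Cytosolic ribosomal protein genes, the nearest functional relatives, had a lower median of -1.27, with 90 of 99 rows past 1.5-fold lower and a GFP KD median of 0.501 ppm of p400. Genes of the respiratory chain and ATP synthase had -0.76 (64 of 99 rows). Differences between these lists were not tested.

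The fall at members was larger near the TSS than in the flanks, as it was over all rows with an identifier. Mean p400 over members dropped by 52.5% from -100 to 300 bp (0.440 to 0.209 ppm). It dropped by 44.7% from -600 to -200 bp (0.327 to 0.181 ppm), and in the flanks it dropped by 4.77% (0.160 to 0.152 ppm).

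**Figure D2:**
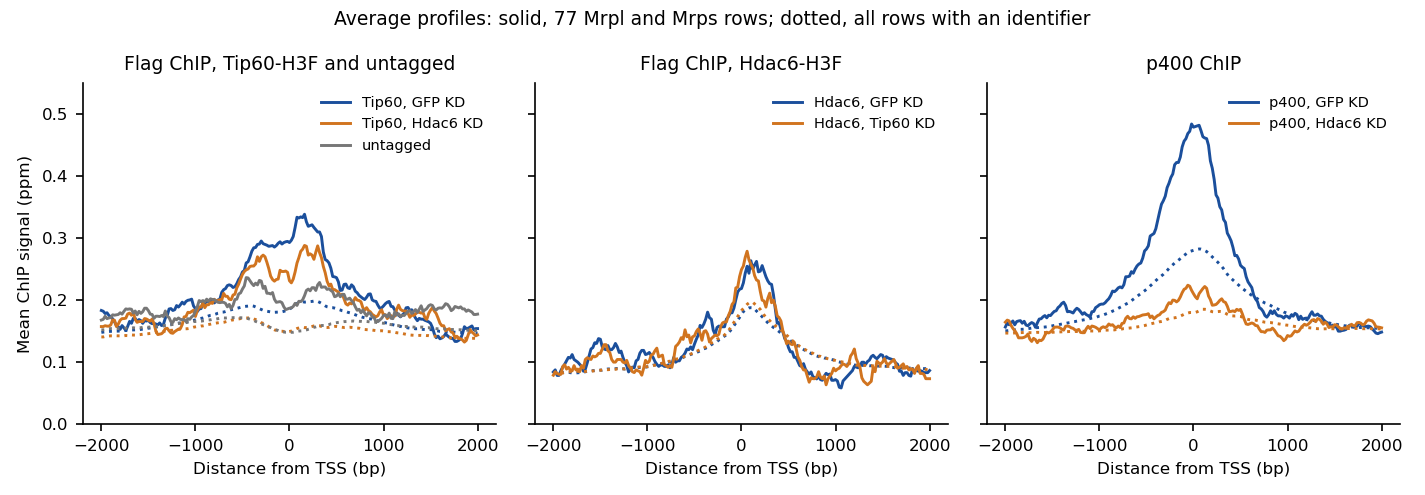
Mean ChIP signal (ppm, y axis) by distance from the TSS (bp, x axis; negative is upstream) over the 77 member rows (solid) and all 22704 rows with an identifier (dotted), 1 line per library. The p400 summit of members goes from 0.484 ppm upon GFP KD to 0.224 ppm upon Hdac6 KD, while the 2 Hdac6 lines overlap.

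Tip60 was measured against the untagged cells with the same antibody. Members had a median log2 fold of 0.40 over untagged, compared with 0.15 over all rows. Past 1.5-fold, 31 members (40.3%) were higher, against 26.1% of all 36733 rows, and 5 were lower, against 13.4%. By the read test 4 members (5.19%) were higher and 0 lower, against 1.14% and 0.0653% of all rows, and at an unadjusted p under 0.05 the member counts were 20 (26.0%) and 1 (1.30%), against 7.95% and 2.11%. The untagged signal of members was itself high, with a median of 0.210 ppm against 0.152 ppm over rows with an identifier and a median percentile of 79.5. In the flanks the members' mean was 0.156 ppm for Tip60 and 0.182 ppm for untagged, so the excess of Tip60 lay at the promoter and not around it.

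The 4 genes that passed were Mrps36, Mrpl54, Mrpl49 and Mrpl12. Mrps36 had 0.436 ppm of Tip60 and 0.108 ppm in untagged cells (32 and 9 reads), a log2 fold of 1.83 (exact adjusted p = 0.0191). Mrpl54 had 0.719 and 0.209 ppm (log2 fold 1.69, exact adjusted p = 0.00204) and Mrpl12 0.629 and 0.220 ppm (log2 fold 1.43, exact adjusted p = 0.0132). Mrpl49 had 0.438 and 0.126 ppm (log2 fold 1.65, exact adjusted p = 0.0359). Its TSS lies 198 bp from that of Fau, which encodes cytosolic ribosomal protein S30 on the opposite strand, so the reads cannot be assigned to either gene. The next gene, Mrps35, had 0.352 and 0.0991 ppm and did not pass (exact adjusted p = 0.0819).

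Lowest by this fold was Mrps9, a homologue of bacterial S9, with 0.149 ppm of Tip60 and 0.376 ppm in untagged cells (log2 fold -1.23, exact adjusted p = 0.243). Mrpl32 (-0.94), Mrps18c (-0.84) and Mrpl28 (-0.72) followed, and each had an untagged signal of at least 0.285 ppm, above the member median. None of the 4 passed the read test.

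Mitochondria-specific members had a higher median fold over untagged than bacterial homologues, 0.88 against 0.26, and 17 of 28 against 14 of 49 rows were past 1.5-fold. Tip60 medians were 0.328 and 0.226 ppm, and untagged medians 0.200 and 0.224 ppm. Cytosolic ribosomal protein genes had a median of 1.00 with 67 of 99 rows past 1.5-fold, and respiratory chain genes 0.34 with 33 of 99. These are descriptions with no test between lists.

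The average Tip60 profile of members had its summit downstream, at 160 bp (0.338 ppm), and a lower maximum of 0.295 ppm at -300 bp, with a shallow minimum of 0.287 ppm at -180 bp between them. The upstream maximum moved to -120 bp, the border of the search, when 1 row per gene or only rows without a close neighbour were averaged, so an upstream peak separate from the downstream one is not established in these rows. Over all rows with an identifier the maxima lay at -400 bp (0.191 ppm) and 280 bp (0.198 ppm).

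Hdac6 signal at members was close to that at other promoters, relative to the untagged cells. The untagged signal was scaled to the shorter read span of the Hdac6 files, after which the median log2 fold over untagged was 0.66 over members and 0.61 over all rows. Past 1.5-fold, 42 members (54.5%) were higher, against 51.4% of all rows, and 1 was lower, against 9.23%. Over rows with an identifier, as all members have, the median was 0.73 and 56.4% were past 1.5-fold higher, both slightly above the members. The read test called 21 members (27.3%) higher and 0 lower, against 20.4% and 0.316% of all rows, with 29 (37.7%) higher and 0 lower at an unadjusted p under 0.05, against 30.7% and 1.07%. Without the scaling the median over members turns to -0.26. The highest mean Hdac6 signal lay at 100 bp downstream, at 0.263 ppm over members and 0.188 ppm over rows with an identifier. Members had a further, lower maximum of 0.180 ppm at -360 bp, past a minimum of 0.153 ppm at -260 bp, and it moved to the search border at -120 bp under 4 alternatives.

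Mrps rows had a median of 1.03 (18 of 27 past 1.5-fold) and Mrpl rows 0.56 (24 of 50), with Hdac6 medians of 0.215 and 0.163 ppm. The median fold was 1.01 over mitochondria-specific rows and 0.60 over rows of bacterial homologues. Differences between these lists were not tested. Mrps7, the homologue of bacterial S7, had 0.382 ppm of Hdac6 and 0.0906 ppm in untagged cells before scaling (31 and 7 reads, log2 fold 2.63, exact adjusted p = 1.01e-06). Mrps24, a homologue of bacterial S3, had 0.262 and 0.0525 ppm (21 and 4 reads, log2 fold 2.62, exact adjusted p = 4.18e-05). Mrpl43 (2.39) and Mrpl37 (2.21) came next, and all 4 had untagged signal under 0.1 ppm, less than the member median of 0.210 ppm. Mrpl43 and Mrpl37 also have a close TSS on the opposite strand, that of Peo1 at 116 bp and that of Cyb5rl at 174 bp. The smallest folds were those of Mrps14 (-0.54), Mrps9 (-0.49), Mrpl16 (-0.40) and Mrpl15 (-0.34), where untagged signal was 0.296 ppm or more. Mrpl35 held a single Hdac6 read, so its fold was not ranked.

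**Figure D3:**
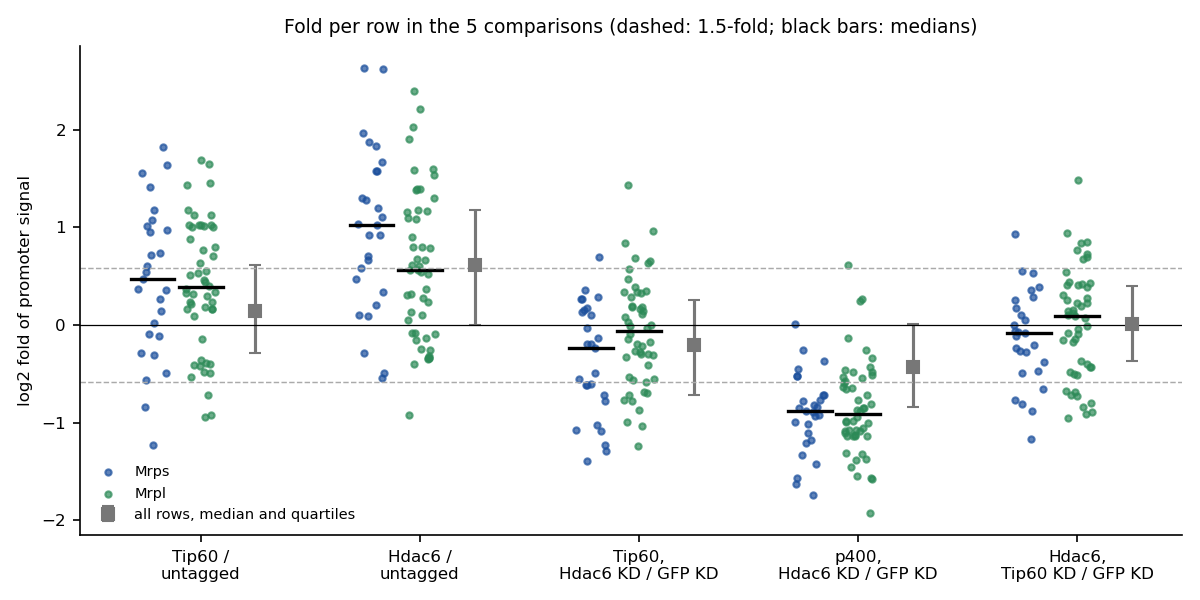
log2 fold of promoter signal (y axis) for each Mrps (blue) and Mrpl (green) row in the 5 comparisons (x axis), with the median of each as a black bar and the median and quartiles over all rows in grey. In the p400 comparison 57 of the 77 points lie below the lower dashed line, which marks 1.5-fold.

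Tip60 at members upon Hdac6 KD had a small median change whose direction depended on the correction for GC content. The median log2 fold was -0.17 over members and -0.21 over all rows as deposited, and 0.079 and -0.0093 after that correction. Past 1.5-fold, 21 members (27.3%) were lower, against 31.1% of all rows, and 7 were higher, against 13.4%. The read test called 0 members in either direction, against 0.351% of all rows lower and 0.0463% higher. At an unadjusted p under 0.05, 10 of 77 members were lower and 1 higher, against 8.42% and 2.64% of all rows. In the flanks of all rows, the Tip60 signal of the Hdac6 KD library relative to the control moved with GC content, from 1.13 in windows of 30 to 32.5% GC to 0.848 at 55 to 57.5%, the bin of the median member promoter. After correction by this ratio 9 members (11.7%) were past 1.5-fold lower and 14 (18.2%) higher, against 22.4% and 19.7% of all rows.

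Mrps23, a mitochondria-specific gene, had 0.277 ppm of Tip60 in the control and 0.0931 ppm in the Hdac6 KD library (20 and 6 reads, ratio interval 0.110 to 0.863). Mrps28 had 0.438 and 0.168 ppm (32 and 11 reads, 0.174 to 0.779), Mrpl13 0.303 and 0.117 ppm (22 and 8 reads, 0.156 to 0.944) and Mrps12 0.200 and 0.0737 ppm (15 and 5 reads, 0.106 to 1.07). Mrps12 is the homologue of bacterial S12, a protein of the decoding centre. In the other direction Mrpl53 had 0.0965 ppm in the control and 0.294 ppm in the Hdac6 KD library (7 and 19 reads, 1.22 to 8.51). None of these 5 passed the adjusted read test. The intervals exclude equality in all but Mrps12, but they are neither adjusted nor corrected for GC content. These genes were named as extremes of this fold among 65 ranked genes, so such intervals are no support for a change.

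Mrps rows made up 11 of the 21 that were past 1.5-fold lower, and Mrpl rows 10, with medians of -0.24 and -0.06. Both Tip60 and p400 were past 1.5-fold lower upon Hdac6 KD in 17 members (22.1%), against 14.1% of all rows with an identifier. Both counts are without the GC correction. These 2 comparisons use separate libraries for each antibody.

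Hdac6 at members was about equal upon GFP KD and in the library titled Tip60 KD. The median log2 fold was -0.01 over members and 0.01 over all rows. Past 1.5-fold, 14 members (18.2%) were lower, against 16% of all rows, and 9 (11.7%) were higher, against 16.6%. The read test called 0 members and 0% of all rows in either direction. At an unadjusted p under 0.05, 1 member was lower and 0 higher, and of all 36733 rows 386 were lower and 551 higher. These are the shallowest libraries, and single promoters have wide intervals. Mrps23 had 0.350 ppm in the control and 0.145 ppm in the other library (28 and 9 reads, ratio interval 0.168 to 0.880). Mrpl18, a homologue of bacterial L18, had 0.129 and 0.266 ppm (10 and 17 reads, 0.923 to 5.22).

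Members held promoter features that the name rule did not use and that related gene lists held as well. Another gene's TSS lay within 1000 bp of 24 member rows (31.2%), in every case on the opposite strand, whereas 7.12% of rows with an identifier, 26.3% of respiratory chain rows and 14.1% of cytosolic ribosomal protein rows had such a neighbour. The partners included Ndufb5, a complex I subunit (288 bp from Mrpl47), Peo1, the mitochondrial DNA helicase (116 bp from Mrpl43), Hira, a histone chaperone (113 bp from Mrpl40), and Tcp1, a chaperonin subunit (374 bp from Mrpl18). Of the rows with a neighbour, 18 of 24 were past 1.5-fold lower in p400 upon Hdac6 KD, and of those without, 39 of 53. The ratio of observed to expected CpG was 0.723 at the median member and 0.548 over rows with an identifier, and 0.798 and 0.720 over cytosolic ribosomal protein and respiratory chain rows.

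Motifs were sought as exact letters on both strands in the 300 bp windows around the TSS. The ETS letters end and the YY1 letters begin with the same 3 bases, so these matches can overlap. The ETS letters CCGGAAG stood in 31 member rows (40.3%) and in 11.1% of rows with an identifier, the YY1 letters AAGATGGC in 14 (18.2%) and 3.43%, and the NRF1 letters CGCATGCG in 7 (9.09%) and 2.08%. In cytosolic ribosomal protein rows these shares were 40.4%, 12.1% and 4.04%, and in respiratory chain rows 27.3%, 14.1% and 8.08%. ETS factors such as GABPA, the zinc finger protein YY1 and NRF1 are known regulators of nuclear genes for mitochondrial proteins. The Sp1 letters GGGCGG were in 54.5% of members and 45.8% of rows with an identifier, the NFY letters CCAAT in 36.4% and 36.4%, and the E-box CACGTG in 6.49% and 7.66%. By symbol, ETS letters were in 17 of 27 Mrps rows and 14 of 50 Mrpl rows, and NRF1 letters in 7 Mrpl rows and 0 Mrps rows. These differences in shares were not tested. Of the members that held them, 26 of 31 (83.9%) had an ETS match and 12 of 14 (85.7%) a YY1 match starting from -60 to 49 bp of the TSS. Over all rows with an identifier that held these letters, the shares were 58.0% and 62.6%. A match to these letters is a description of the sequence and not evidence that the factor binds.

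**Figure D4:**
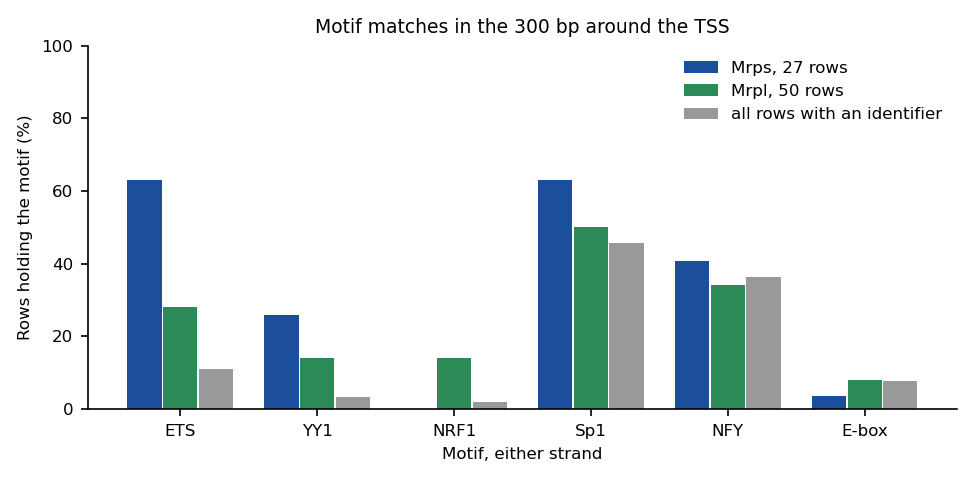
Share of rows (%, y axis) whose window from 250 bp before to 49 bp after the TSS holds each motif on either strand (x axis), for Mrps, Mrpl and all rows with an identifier. The ETS bar reaches 63.0% for Mrps rows and 28% for Mrpl rows, against 11.1% over rows with an identifier.

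Genes for mitochondrial ribosomal proteins whose symbols fall outside the rule had p400 folds within the range of the members. The 7 genes searched had 8 rows, with a median p400 log2 fold of -0.69 upon Hdac6 KD, all 8 below 0 and 4 past 1.5-fold lower. Their median Tip60 log2 fold upon Hdac6 KD was -0.53 with all 8 rows below 0. Over members it was -0.17 with 46 of 77 rows below 0, both without the GC correction. Hdac6 over untagged had a median of 1.16 in these 8 rows and 0.66 over members. These differences were not tested. Dap3, a small subunit protein first known for a role in cell death, went from 0.332 to 0.0769 ppm of p400 (log2 fold -1.86, exact adjusted p = 0.00229). Its Hdac6 log2 fold over untagged was 2.17. Mrp63 had 0.590 and 0.222 ppm of p400 (log2 fold -1.34, exact adjusted p = 0.0027), and the other 5 genes did not pass.

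Factors that act on the mitochondrial ribosome, in initiation, elongation, release and assembly, were represented by 18 of the 20 genes listed, with 23 rows. Their median p400 log2 fold upon Hdac6 KD was -0.77, with 17 rows past 1.5-fold lower, 7 lower by the read test and 0 higher. Mtif2, the mitochondrial initiation factor, went from 0.412 to 0.134 ppm at its first row (log2 fold -1.49, exact adjusted p = 0.00482). Mtif3, another initiation factor, had 0.222 and 0.210 ppm (log2 fold -0.07). Over untagged, Tip60 at these genes had a median log2 fold of 0.08, with 4 of 23 rows past 1.5-fold higher.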

How the data were processed

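As the methods describe, the authors collapsed single-end reads by sequence while keeping their occurrences, mapped them to mm9 with Bowtie (CASAVA 1.8.2 is also named in the submitters' processing notes), allowing 1 mismatch, and extended each to a length of 150 bp. The deposited values are normalized coverage signal (ppm) every 20 bp from -2000 to 2000 bp of each TSS. A read that overlaps no other covers 299 bp in all files but those of Hdac6, where it covers 148 or 149 bp; how the normalization was done is not given in the sources used here. PCR duplicates were kept and count as separate reads, so the intervals and read tests may understate counting error.

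Values are whole multiples of 1 read (tolerance 0.02 of a step), which gave the depths. To estimate the reads of a row, its summed signal was divided by the value of 1 read and by the span and then rounded. p400 rows were joined by identifier and file order. Python 3.11.15, numpy 2.4.6, scipy 1.17.1 and matplotlib 3.10.9 were used, and the read test was tested on simulated data. Groups follow the sample titles.

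Genes named are, per comparison, the 4 largest and 4 smallest log2 folds among member genes with at least 20 reads, the 4 highest and 4 lowest in p400, and a fixed list. Dap3, Mrp63, Mtif2, Mtif3 and the neighbouring genes were named after their values were seen. Members and lists were chosen with earlier results of these data known. Alternatives were other windows, pseudocounts, fold cutoffs, read minimums, scalings, 1 row per gene, rows without neighbours and a GC correction.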

Additional observations from a re-analysis of the deposited data

Results flagged for a closer look

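Mrpl19, a homologue of bacterial L19, was the 1 member gene of 69 at which Tip60 and p400 moved past 1.5-fold in opposite directions upon Hdac6 KD. Tip60 went from 0.0763 to 0.168 ppm (6 and 11 reads), and p400 from 0.198 to 0.0812 ppm (17 and 9 reads). The log2 folds differed by 2.07. The difference was not tested, and neither change passed the read test (exact adjusted p = 0.779 for Tip60 and 0.202 for p400). Tip60 higher with p400 lower past 1.5-fold occurred in 869 of 22704 rows (3.83%), and Tip60 lower with p400 higher in 407 (1.79%).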

How the results depend on the processing

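Of 142 alternative values, 116 stayed within the interval or 1.5 times the count of the reported value, 23 moved further and 3 medians changed sign. Upon Hdac6 KD the Tip60 median became 0.079 with the GC correction (all rows -0.0093). For Hdac6 upon Tip60 KD it became 0.018 from -600 to -200 bp, from a value near 0. The median Hdac6 log2 fold over untagged became -0.26 with 16 members higher when the untagged signal was not scaled to the read span; it was 0.24 with equal totals, 0.45 with equal flanks and 0.16 from -600 to -200 bp. The Tip60 median over untagged was 0.21 in that upstream window. The p400 median upon Hdac6 KD was -1.02 from -250 to 250 bp, -0.71 from -1000 to 1000 bp and -0.64 with equal totals (all rows -0.19). Members past the fold were, with a cutoff of 2, 8 (Tip60, Hdac6 KD), 30 (p400) and 1 (Hdac6, Tip60 KD), fewer by construction. From -1000 to 1000 bp they were 11 (Tip60, Hdac6 KD) and 9 (Hdac6, Tip60 KD). With the GC correction 9 were lower and 14 higher in Tip60. Among the 53 rows without a neighbour within 1000 bp, 20 were higher in Tip60 over untagged and 12 lower in Tip60 upon Hdac6 KD. Ranked upon Hdac6 KD, 11.7% of members were in the top 10% of p400. The upstream Tip60 maximum moved to -120 bp with 1 row per gene and without neighbours, and the upstream Hdac6 maximum from -360 to -120 bp with those, with smoothing over 100 bp and with medians of smoothed values. Other causes were not tested. No paired analysis was possible because each condition has 1 library. Library medians of 11 to 33 reads per member promoter limit what can be said of single promoters.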

Other observations

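Members holding the YY1 letters (14 rows) had a median Tip60 log2 fold over untagged of 0.96, and those without (63 rows) 0.34. Over all rows with an identifier the medians were 0.42 with the letters and 0.18 without. The untagged medians of the members were 0.163 ppm with the letters and 0.214 ppm without, and their Tip60 medians 0.254 and 0.267 ppm. For the ETS letters the member medians were 0.53 (31 rows) and 0.32 (46 rows), with untagged medians of 0.211 and 0.207 ppm. The 7 rows holding the NRF1 letters had a p400 median of 0.435 ppm upon GFP KD, against 0.372 ppm in the other 70. These differences were seen in the data and were not tested.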
